A study of Mus musculus with 5 samples.

Results

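The comparison set pancreas of mice lacking the microRNA miR-21 (miR-21-/-) against pancreas of wild-type mice, both after caerulein, and used 4 of the 5 libraries of the series. Wild-type replicates 1 and 2 and knockout replicates 1 and 3, as numbered in the labels, are called wild type 1, wild type 2, knockout 1 and knockout 3. All mice were female, of the C57BL/6 strain and 8 weeks old, and received repeated intraperitoneal caerulein at 50 µg/kg. The pancreas was collected 24 h after injections began, and poly(A) RNA of the whole organ was sequenced. The labels do not say how the deletion was made, or that each library is a separate mouse, so the spread between libraries may be technical. No knockout library without caerulein was analysed here, so differences that existed in untreated mice and differences in the response cannot be told apart. In bulk tissue, fewer cells of a type and less RNA per cell cannot be told apart either.

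Caerulein is an analogue of the gut hormone cholecystokinin, which makes acinar cells secrete digestive enzymes. Repeated high doses injure the acinar cells, and inflammatory cells and matrix-producing stellate cells take part in the acute pancreatitis that follows. A microRNA pairs with messenger RNAs mainly through its seed, the bases 2 to 8 from its 5′ end, and lowers the level or the translation of those it binds. Transcripts held down by miR-21 directly would therefore stand higher where it is absent, while indirect effects can go either way. Known targets of miR-21 include regulators of growth signalling, of matrix breakdown and of cell death.

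The deleted microRNA lies on mouse chromosome 11 on the minus strand, with the 5p strand at chr11:86584120-86584141 in RefSeq's GRCm38.p6 build. The mature 5p and 3p sequences are shown with the seed in capitals, because the seed match of the 5p strand was searched among the genes compared.
mmu-miR-21a-5p: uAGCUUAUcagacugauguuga
mmu-miR-21a-3p: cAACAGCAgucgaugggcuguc
The genes analysed held neither miR-21 nor Vmp1, the gene next to it, so the deletion itself was not checked in these libraries.

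The comparison covered all 1457 listed genes, whose values have no stated unit and are written on the log2(value + 1) scale where differences are given. The genes are part of the transcriptome, and how they were chosen is not stated. They stand in falling order of the wild-type caerulein mean over a saline library, with 0 out of order. The wild-type caerulein mean was above the saline value for 1412 of the 1457 genes, and the knockout mean for 1410. Whether knockout values also served to choose the genes was not tested. Genes lower in the knockout may be listed through their wild-type values alone, so counts of lower genes describe the listed genes only. The values summed to between 23255 in wild type 2 and 38628 in wild type 1, and between 31 genes (knockout 3) and 89 genes (wild type 2) stood at the lowest value, 0.01. What that value stands for is not stated. No ratio against it is given, and log2 differences that rest on it, such as that of Anxa10, depend on the pseudocount of 1. The read depth is unknown.

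The libraries did not sort by genotype. Wild type 1 resembled knockout 3, and wild type 2 resembled knockout 1. Spearman's rho across the 1457 genes was 0.75 for wild type 1 with knockout 3 and 0.74 for wild type 2 with knockout 1. The knockout libraries reached only 0.48 with each other and the wild-type libraries 0.37, and the remaining pairs gave 0.48 (wild type 1 with knockout 1) and 0.43 (wild type 2 with knockout 3). Genes are not independent replicates, so these coefficients are descriptions. On the log2 scale the median gene differed by 0.50 between wild type 1 and knockout 3 and by 0.67 between wild type 2 and knockout 1, against 1.10 between the wild-type libraries and 0.79 between the knockout libraries. Within a genotype the distance was thus larger than across it for these pairs, as the plot of library resemblance shows.

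**Figure D1:**
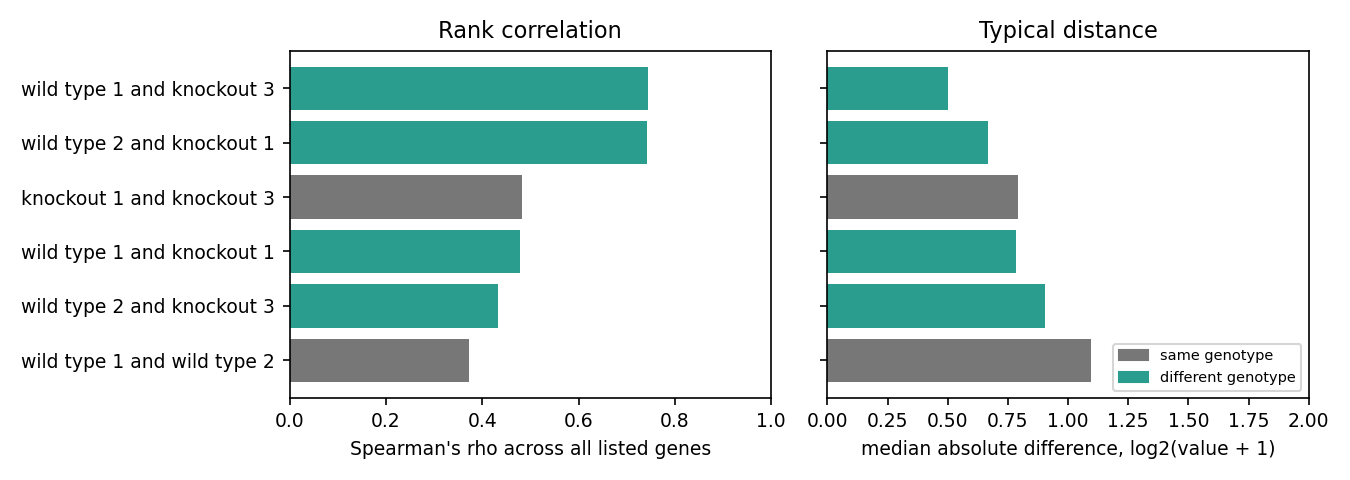
Spearman's rho (left) and median absolute log2 difference (right) across 1457 genes for each of the 6 pairs of libraries; grey bars join libraries of the same genotype and green bars libraries of different genotype. The highest correlations, 0.75 and 0.74, and the smallest distances, 0.50 and 0.67, belong to pairs of different genotype.

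Named genes show the same arrangement. Eef1a1, a translation elongation factor, was 1775.9 in wild type 1 and 2165.18 in knockout 3, against 329.69 in wild type 2 and 331.28 in knockout 1. Col3a1, a fibrillar collagen of stellate cells, was 525.1 and 271.09 in the first of these pairs and 50.15 and 73.25 in the second. Klk1, a tissue kallikrein of acinar cells, was 562.8 and 303.03, against 22.23 and 141.85. On the log2 scale its value in knockout 1 was nearer to knockout 3 than to wild type 2. These genes were chosen after their values were seen. They show a spread within each genotype wider than the difference between genotype means (0.15, −0.21 and 0.86 on the log2 scale). For Klk1 the knockout spread was only slightly wider.

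The sum of the stellate cell markers, most of it from Col3a1, followed the same pairs of alike libraries. The sums of lymphocyte and islet markers were arranged otherwise. The acinar markers had their highest sums in wild type 1 and knockout 3 and their lowest in wild type 2. On a log scale their sum in knockout 1 was nearer to knockout 3 than to wild type 2. The 4 measured acinar markers of 10 looked for (Prss1, Prss3, Klk1 and Cckar) summed to 983.43 and 38.5 in wild type 1 and 2 and to 314.97 and 636.2 in knockout 1 and 3. The 3 measured stellate cell markers of 7 summed to 617.01 and 73.63, and to 112.02 and 310.57. Beside Col3a1 these were Postn, at 78.38 and 18.54 against 32.83 and 32.67, and Pdgfrb, at 13.53 and 4.94 against 5.94 and 6.81. For Postn and Pdgfrb the 2 knockout libraries were close to each other. The sums of the 6 measured macrophage markers of 9 were closer together, at 413.42 and 301.93 against 371.83 and 355.39. Laptm5 was the largest part, at 167.2 and 207.34 against 213.33 and 180.11. Single markers could vary more, such as Mrc1 at 41.08 and 2.94 against 11.77 and 10.52, and Emr1 at 57.43 and 9.27 against 31.76 and 30.54. The 2 lymphocyte markers, Cd79a and Igj, summed to 57.7 and 4.58, and to 50.64 and 2.12, and islets were covered by Pcsk2 and Slc2a2 (10.71 and 9.74, against 41.96 and 26.63). Of 5 neutrophil markers 0 were among the genes analysed, and for ducts, endothelium and red blood cells 1 each was. The part of cell composition in the differences below was not tested.

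No gene passed the test between the genotypes. Limma called 0 of 1457 genes (0% at an adjusted p under 0.05), with an adjusted p of 1 for every gene. At an unadjusted p under 0.05 there were 8 genes, 6 of them higher and 2 lower in the knockout. If p-values were evenly spread, as with no difference and no other structure among the libraries, about 73 of the 1457 genes would be expected there. The libraries did pair across genotypes, so that number is only a rough guide. Being among the 8 is not taken as evidence for a gene. The median standard error (SE) of a log2 difference was 0.85 and the median 95% interval reached 1.66 on either side. For a typical gene, differences under about that size could not reach an unadjusted p under 0.05. A call needed a larger difference still, because p-values were adjusted over 1457 genes. A single gene in 2 libraries against 2 cannot go below p = 0.333 in an exact two-sided permutation test. The values that follow are therefore descriptions of these 4 libraries.

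For 69 genes both knockout values lay above both wild-type values (4.74% of all listed genes), and for 66 genes both lay below (4.53%). For the other 1322 the groups overlapped. The gap between the groups, from the nearest knockout value to the nearest wild-type value, had a median of 0.15 for the higher genes and 0.26 for the lower genes on the log2 scale. It reached at least 1 for 5 higher and 8 lower genes. At the edge of the rule, St7 was just inside with 10.93 and 6.63 in the knockout, against 6.01 and 6.6 in the wild type, and Sema4b just outside with 10.51 and 8.24 against 5.25 and 8.26. On the lower side Slc28a2 was just inside, at 4.34 and 7.58 against 7.61 and 12.72, and Inpp5d just outside, at 11.78 and 9.91 against 19.04 and 11.72. Wild type 2 stood at 0.01 for 7 of the 69 higher genes, and knockout 3 for 4 of the 66 lower ones.

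The number without overlap depended on the scale of the libraries. Scaling by the median ratio gave 92 higher and 108 lower genes, equal sums without the most abundant genes 72 and 107, and quantile normalization 94 and 122. The share of higher genes among them went from 51.1% as deposited to 46.0%, 40.2% and 43.5% in that order. Without overlap as deposited and under all 3 scalings were 34 of the 69 higher and 40 of the 66 lower genes. Of the 12 genes with the widest gap, 11 of the higher and 12 of the lower kept it.

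**Figure D2:**
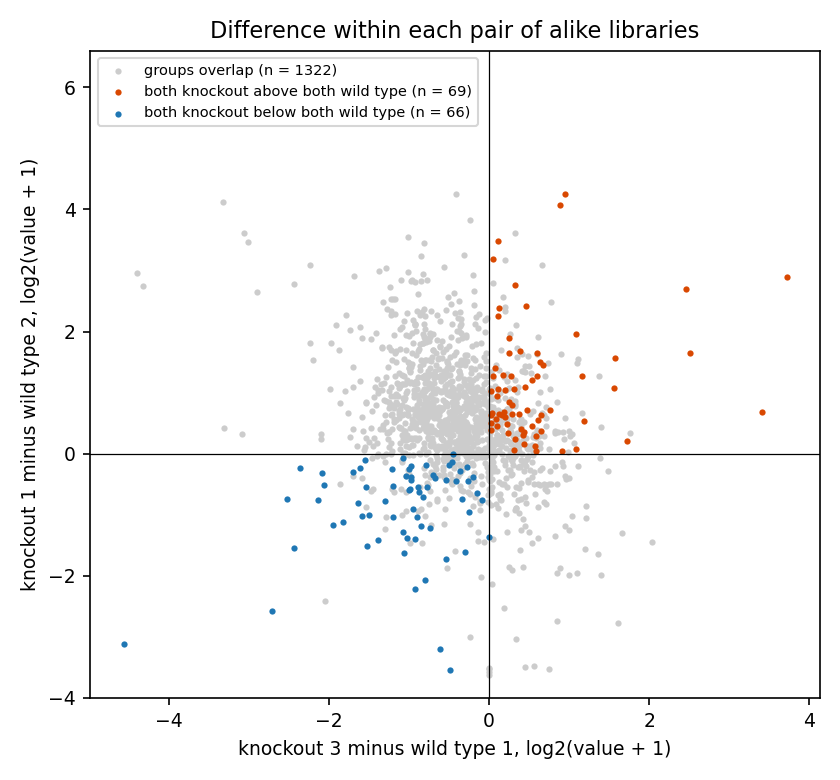
Log2 difference of knockout 3 from wild type 1 (x axis) against that of knockout 1 from wild type 2 (y axis) for the 1457 genes; orange points are the 69 genes with both knockout values above both wild-type values, blue the 66 with both below, grey the 1322 whose groups overlap. Over all genes the medians are −0.37 on the x axis and 0.49 on the y axis, for values as deposited and not scaled. The values summed to 38628 in wild type 1 and 34393 in knockout 3, and to 23255 in wild type 2 and 32770 in knockout 1. The part of library scale in these medians was not tested.

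Among the higher genes, Hnrnph1 combined a wide gap, 1.96 on the log2 scale, with knockout values well above those of the median gene. Prss1 had a wider gap, 2.89, at lower values, and Rpl41 had higher values with a gap of 0.36. Hnrnph1 encodes hnRNP H1, a protein that binds G-rich RNA and steers alternative splicing. Its values were 75.7 and 107.84 in knockout 1 and 3 and 18.71 and 10.8 in wild type 1 and 2. Both knockout libraries were far above both wild-type libraries, with a log2 difference of 2.58 (SE 0.84, n = 2 against 2). Its adjusted p from limma was 1, though it was among the 8 genes with an unadjusted p under 0.05. The difference stayed between 2.21 and 2.95 with any library left out. When the alike libraries were joined as a block, a choice made because of these data, Hnrnph1 was the 1 gene limma called (adjusted p = 0.0378). Its close relative Hnrnph2 was 82.09 and 38.75 against 47.09 and 89.78, with overlapping groups, and short reads can be divided between the 2 copies.

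Set, a histone chaperone and inhibitor of protein phosphatase 2A, was 17.35 and 36.71 in the knockout, against 5.62 and 4.86 in the wild type. Its wild-type values were close together and well below the lower knockout value (log2 difference 2.08, SE 0.77), and it too was among those 8 genes. Prss1, a trypsinogen of acinar cells, was 6.5 and 12.28 in the knockout and at 0.01 in both wild-type libraries. It has several near-identical paralogs to which its reads could be assigned, and its level is therefore uncertain. Pcsk2, the prohormone convertase of islet alpha cells that processes glucagon, was 40.83 and 21.71 against 9.7 and 9.73, so that the lower knockout value was over the wild-type values by 1.08 on the log2 scale.

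Pias3 was 13.54 and 17.09 in the knockout, against 7.09 and 5.04 in the wild type, a log2 difference of 1.21 (SE 0.80), with no overlap. It encodes a SUMO ligase that inhibits STAT3. Pdcd10, which with its partners keeps endothelial junctions and Golgi-associated kinases in order, was 18.3 and 7.6 against 3.46 and 0.01, and its gap to wild type 1 was 0.95. Vip, a neuropeptide of pancreatic nerves, was 4.15 and 13.93 against 0.4 and 2.22. For comparison, the median gene of the table averaged 10.4 over the 4 libraries.

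Ifit3, an interferon-induced protein of antiviral defence, was 16.89 and 13.75 in the knockout, against 8.52 and 5.35 in the wild type. The zinc finger gene Zfp617 was 15.91 and 14.79 against 8.88 and 5.2, and Zfand1, a cofactor in the clearance of stress granules, 16.49 and 10.26 against 6.42 and 4.56. The pseudogene Npm3-ps1 was 17.59 and 18.32 against 11.61 and 11.62. In each of these the knockout libraries were the upper pair, but Npm3-ps1 overlapped after median-ratio scaling.

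Kpna2 had the widest gap among the lower genes. It encodes importin alpha 1, which carries proteins into the nucleus and is abundant in dividing cells, and was at 0.01 in both knockout libraries and at 22.92 and 7.79 in wild type 1 and 2. Xiap, an inhibitor of the caspases that carry out apoptosis, was likewise at 0.01 in both knockout libraries and at 5.6 and 5.01 in the wild type. Values at 0.01 also occur for widely expressed genes in this table, so these 2 genes are listed at the lowest value and no fold is given.

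Lta4h was 6.62 and 5.28 in the knockout, against 23.25 and 16.14 in the wild type. It encodes leukotriene A4 hydrolase, which makes the neutrophil attractant leukotriene B4. Its log2 difference was −1.56 (SE 0.78), and between −1.81 and −1.31 with any library left out. Lta4h and Xist, described below, were the 2 lower genes among the 8 with an unadjusted p under 0.05. Trpm7, a magnesium and calcium channel with its own kinase domain, was 3.2 and 2.58 against 9.26 and 11.03. Map4k3, a kinase of amino acid sensing, was 3.15 and 3.57 against 10.96 and 10.11. Both pairs were tight within each genotype, with gaps of 1.29 and 1.28 on the log2 scale.

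Dock2, a guanine nucleotide exchange factor that drives the migration of leukocytes, was 3.87 and 3.31 in the knockout, against 11.14 and 8.74 in the wild type. Lrrc16a, a regulator of actin capping, was 4.38 and 4.84 against 10.85 and 12.95. Atg16l1, part of the complex that attaches LC3 to autophagosome membranes, was 1.71 and 2.53 against 5.72 and 11.53. In all 3 genes both knockout values were under the lower wild-type value, at low levels.

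Lama5, a laminin chain of basement membranes, was 3.07 and 2.85 in the knockout, against 12.58 and 7.85 in the wild type. Pxdn, the peroxidase that crosslinks collagen IV, was 5.17 and 2.86 against 11.04 and 9.83, and Abi3bp, a matrix protein of connective tissue, 3.04 and 4.57 against 10.76 and 8.84. Xist, the RNA that coats the inactive X chromosome, was 2.24 and 4.38 against 28.07 and 8.43, a log2 difference of −1.99 (SE 0.90). All the mice were labelled female. Without wild type 1 the Xist difference was −1.18.

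**Figure D3:**
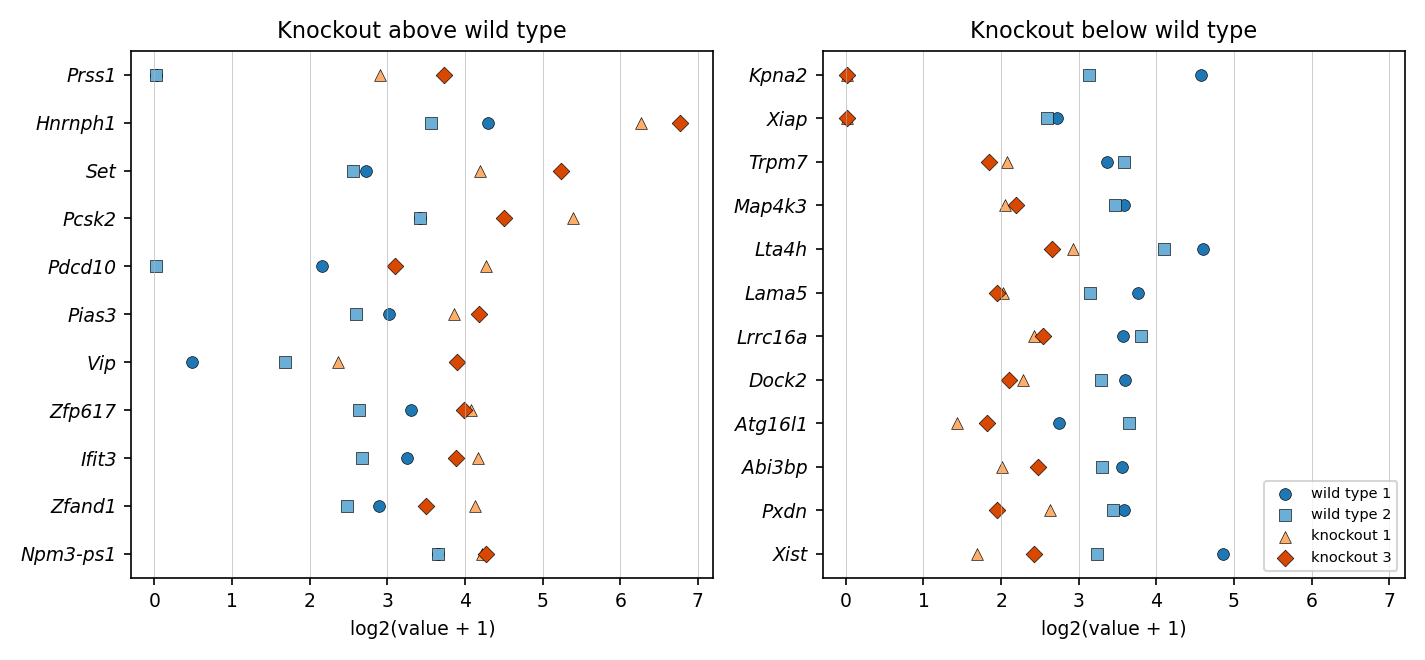
Value on the log2(value + 1) scale in each of the 4 libraries for the genes with the widest gap between the genotypes, higher in the knockout on the left and lower on the right; circles and squares are wild type 1 and 2, triangles and diamonds knockout 1 and 3, with 1 of the 12 higher genes not shown and markers of equal value lying over each other. Hnrnph1 lies at the top of the scale in the knockout, while Kpna2 and Xiap lie at the lowest value there.

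Genes whose groups overlapped were also among the 10 smallest p-values, and in those given here wild type 2 was the low library. Rab3ip, an activator of the vesicle GTPase Rab8, was 15.24 and 19.25 in the knockout against 16.62 and 0.8, and it lay above without overlap under all 3 scalings. Atp5f1, a subunit of ATP synthase, was 11.41 and 19.44 against 15.27 and 0.01. Prss3, a trypsinogen, was 150.18 and 289.84 against 384.9 and 6.97. Without wild type 2 the log2 differences of Atp5f1 and Prss3 turned to −0.031 and −0.88. Anxa10, an annexin of gastric-type epithelium, did not overlap at 16.03 and 23.61 against 12.32 and 0.01, and its difference of 2.48 was 0.62 without wild type 2.

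Of the published miR-21 targets looked for, 6 were measured. For 2 of the 6 both knockout values were above, where 4.74% of all genes were, and for 0 below. The difference in share was not tested. The median log2 difference was 0.13, against 0.09 for all genes. Pias3, described above, is one of the 2. Tgfbi, a secreted matrix protein, was 69.88 and 56.99 in the knockout, against 76.09 and 38.24 in the wild type, and Timp3, an inhibitor of metalloproteases, 31.51 and 17.05 against 31.99 and 20.06. Plat, the tissue plasminogen activator, was 23.04 and 11.65 against 20.74 and 12.3. Hnrnpk, an RNA-binding protein, followed the alike libraries, at 6.96 and 104.12 against 89.07 and 10.69. The list median was −0.0068 with quantile normalization, 1.01 without wild type 1 and −0.29 without wild type 2. The median of all genes moved as well, to 0.48 without wild type 1 and −0.32 without wild type 2, and the list holds too few genes to set it apart.

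The seed match of miR-21a-5p, the 7 letters ATAAGCT read on the sense strand, was searched in the annotated 3′ UTR of 1435 listed genes. It occurred in 98 of them (6.83%). It occurred in 5 of the 68 higher genes with a 3′ UTR (7.35%), in 3 of the 63 lower ones (4.76%) and in 90 of the 1304 that overlapped (6.90%). The 98 genes with a match had a median log2 difference of 0.02, against 0.10 for the 1337 without, and 52 of the 98 were positive. Their 3′ UTRs were also longer, with a median of 2600 bases against 1004. The 24 genes with the 8-letter match ATAAGCTA had a median of 0.06, and 2 of them were among the higher genes and 0 among the lower. The median of the genes with a match was thus below that of the rest.

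Sites of higher and of lower genes are shown with the match in capitals, since both classes hold the same letters. The first 4 belong to higher genes and the last 3 to lower genes, and each sequence runs 5′ to 3′ on the sense strand of the GENCODE M21 transcript.
Pdcd10: ctatactaggccctaATAAGCTttg
Unkl: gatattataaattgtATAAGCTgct
Ptp4a1: agaatttaaagacttATAAGCTgca
Hist3h2a: gagtacgtgtataacATAAGCTAc
Xiap: tttcatgccttttgcATAAGCTtaa
Trpm7: gacaaggccgcagagATAAGCTgtt
Map4k3: ggagaattgtgtaagATAAGCTtgt
The match starts at base 773 of a 3′ UTR of 1030 bases in Pdcd10, at 344 of 2576 in Unkl, at 2022 of 2904 in Ptp4a1 and at 1692 of 1700 in the histone gene Hist3h2a. It starts at 314 of 4672 in Xiap, at 1137 of 1261 in Trpm7 and at 741 of 1336 in Map4k3. A match is a description of letters and not a shown site. Unkl, a zinc finger protein, was 11.59 and 9.49 in the knockout, against 6.71 and 4.92 in the wild type, and the phosphatase gene Ptp4a1 12.06 and 14.27 against 11.26 and 5.27.

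Transcript length moved with the direction of the difference. The median length was 2734 bases for the higher genes, 4083 for the lower genes and 3130 for all 1435 genes with an annotated 3′ UTR. With transcripts split into 3 equal classes, 28 genes of the shortest class were higher and 14 lower, 18 and 17 of the middle class, and 22 and 32 of the longest. The median log2 difference was 0.20, 0.11 and −0.02 in that order. Across genes, Spearman's rho of the difference with length was −0.21, and −0.20 and −0.09 within the pairs wild type 1 with knockout 3 and wild type 2 with knockout 1. For GC content it was −0.01. Length was taken from a newer annotation than the authors' build, and its part in the lower values of Lama5, Trpm7 and other long genes was not tested.

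**Figure D4:**
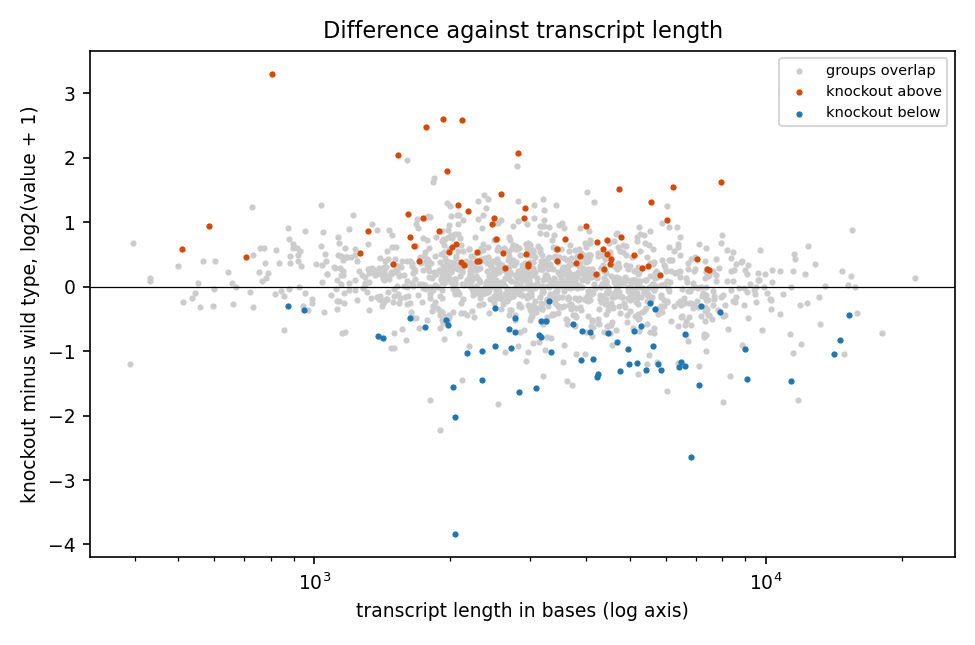
Log2 difference of knockout from wild type against transcript length in bases on a log axis, for genes with an annotated 3′ UTR (1435 genes, 4 not shown); orange points are genes higher and blue points genes lower in both knockout libraries, grey points overlap. Blue points sit further to the right, with a median length of 4083 bases against 2734 for orange points.

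Of the regulated cell death list 7 genes were measured, and 1 lay above, 2 below and 4 overlapped. The share without overlap was 42.9%, against 9.27% of all genes, a difference that was not tested. Beside Pdcd10 and Xiap, Hmgb1, a chromatin protein released by dying cells as an alarm signal, was 3.3 and 1.37 in the knockout, against 12.61 and 6.21 in the wild type. Casp8, the initiator caspase of death receptors, was 46.14 and 17.26 against 19.31 and 37.41, and its inhibitor Cflar 6.8 and 11.63 against 12.43 and 6.68. Bak1, which permeabilizes mitochondria, was 26.02 and 15.56 against 16.17 and 29.09. For these last 3 the alike libraries held the like values, and the list's median was −0.03.

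Acinar genes leaned on wild type 2. All 5 measured members of the acinar list had a positive difference, 1 of them, Prss1, without overlap, and the list's median was 0.86. Without wild type 2 the median was −0.79, and without wild type 1 it was 3.17. Cckar, the receptor for cholecystokinin and caerulein, was 16.44 and 31.05 in the knockout, against 35.72 and 9.29 in the wild type. Both measured islet genes lay above, Pcsk2 as given and Slc2a2, the glucose transporter of beta cells, at 1.13 and 4.92 against 1.01 and 0.01. Of all genes 4.74% lay above. The gap of Slc2a2 was only 0.08 on the log2 scale, and wild type 2 stood at the lowest value. Of 4 measured ductal and metaplasia genes (50.0% without overlap, against 9.27% of all genes) 1 was above (Anxa10) and 1 below. That gene, Cd44, a hyaluronan receptor of leukocytes and injured epithelium, was 5.22 and 4.42 against 15.53 and 6.31, whereas the keratin gene Krt8 overlapped at 244.99 and 283.62 against 352.53 and 142.86.

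The stellate cell and matrix list had 31 measured genes, with 0 above, 3 below and 28 overlapping. Its share without overlap, 9.68%, was close to that of all genes, 9.27%. The 3 were Thbs1, an activator of latent TGF-beta, at 8.51 and 5.34 in the knockout against 25.41 and 12.55, the microfibrillar collagen gene Col6a3 at 2.2 and 4.92 against 10.07 and 5.59, and the short-chain collagen gene Col8a1 at 5.66 and 7.52 against 15.77 and 7.7. The median log2 difference of the list was −0.21, and 12 of the 31 were positive. It was −0.29 to −0.31 under the 3 scalings, which put 6 to 9 genes below and 0 to 1 above. Without wild type 1 the median was 0.31, and without wild type 2 it was −0.84.

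Genes of leukocytes went both ways. Of 13 monocyte and macrophage genes 1 was above, 2 below and 10 overlapped, which leaves 23.1% without overlap, against 9.27% of all genes. The list's median was 0.07 and turned to −0.20 with quantile normalization. Lyz1, a lysozyme, was 11.93 and 8.97 in the knockout against 8.81 and 5.37. Cybb, the membrane subunit of the phagocyte oxidase, was 1.66 and 3.25 against 11.79 and 4.4, and Cd44 is the other lower gene. Of 3 neutrophil and chemoattractant genes (33.3% without overlap) Lta4h lay below. Csf3r, the receptor for granulocyte colony-stimulating factor, overlapped at 16.26 and 6.69 against 8.09 and 21.82. Among 3 lymphocyte genes 0 were without overlap: Cd79a, of the B cell receptor, was 39.74 and 0.48 against 5.95 and 3.81, and Igj, the joining chain of antibodies, 10.9 and 1.64 against 51.75 and 0.77. Both endothelial genes, Vwf and Cd34, overlapped, at 27.77 and 15.25 against 10.15 and 22.93 for Vwf and at 48.54 and 22.62 against 31.03 and 35.7 for Cd34.

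In cytokine signalling, 10 genes of the STAT list were measured, of which 1 (Pias3) lay above, 0 below and 9 overlapped, with a median of 0.11. Stat6, the transcription factor of interleukin-4 signalling, was 14.72 and 4.22 in the knockout against 11.19 and 14.73. Of 6 interferon-induced genes 1 (Ifit3, 16.7% of the list, against 4.74% of all genes) lay above and 5 overlapped. Among these 5 was Oas1a, which senses double-stranded RNA, at 8.13 and 9.43 against 8.83 and 15.1. Of 2 immediate early and stress genes (50.0% without overlap, against 9.27% of all genes), Atf3 was above, at 12.89 and 14.53 against 12.07 and 6.76. Jun overlapped at 43.59 and 34.34 against 41.82 and 37.25.

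Of 17 cell cycle and replication genes 0 were above, 3 below and 14 overlapped, so that 17.6% were without overlap, against 9.27% of all genes. The 3 were Lig1, the DNA ligase of replication, at 8 and 3.75 in the knockout against 8.38 and 12.37, Birc5, the survivin of the mitotic spindle, at 9.57 and 8.44 against 10.29 and 13.48, and the mitotic motor gene Cenpe at 6.07 and 5.44 against 6.13 and 10.07. All 3 overlapped under each of the 3 scalings. The list's median was 0.12. Mki67, the proliferation marker, was 13.08 and 6.51 against 12.94 and 7.63.

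The chromatin and histone list had more genes without overlap, 8 of 27 (29.6%, against 9.27% of all genes), 3 above and 5 below, a difference that was not tested. Beside Set, Hmga1, an architectural protein that bends AT-rich DNA, was 57.43 and 69 in the knockout against 45.16 and 23.12, and Hist3h2a 10.25 and 9.56 against 8.93 and 6.57. Below lay Hmgb1, Xist, Supt16h, a subunit of the histone chaperone FACT, at 5.34 and 3.94 against 10.37 and 8.12, the nucleolar protein gene Npm1 at 39.09 and 47.28 against 68.8 and 52.82, and the histone H3.3 gene H3f3b at 50.56 and 41.9 against 54.29 and 62.05. H3f3b overlapped under all 3 scalings. Several of these, such as Set, Hmgb1, Npm1 and H3f3b, have processed pseudogenes that can take up their reads. The list's median was 0.20, and it was −0.38 without wild type 2.

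RNA processing and translation genes mostly overlapped. Of 32 splicing factor and hnRNP genes (6.25% without overlap, against 9.27% of all genes) 1 (Hnrnph1) was above and 1 below. The list's median was −0.09. The lower one, Srrm1, a coactivator of splicing, was 11.72 and 7.52 in the knockout against 14.64 and 18.56. Srsf2, a splicing factor, had the largest negative difference of the list, −2.23, but overlapped at 0.01 and 7.04 against 32.33 and 4.37. Of 43 translation genes 1 (2.33%) lay above and 42 overlapped. That gene, Rpl41, a small ribosomal protein, was 1965.14 and 2133.1 against 1532.19 and 1202.12, and overlapped with quantile normalization. Gars, the glycyl-tRNA synthetase, was 18.73 and 43.65 against 42.3 and 1.85. The median of the translation list was 0.20 and 32 of 43 were positive, a number that was 24 with quantile normalization.

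Of 45 proteasome and ubiquitin genes 2 were above, 3 below and 40 overlapped, so that 11.1% were without overlap, against 9.27% of all genes. Ufd1l, which with Vcp pulls ubiquitinated proteins from membranes, was 11.71 and 8.64 in the knockout against 7.82 and 1.42. Vcp itself was 15.13 and 12.87 against 17.88 and 15.28, and overlapped after median-ratio scaling. Cul5, a scaffold of ubiquitin ligases that serve cytokine receptors, was 13.72 and 6.54 against 6.16 and 4.55, while Cul7 was 12.03 and 10.92 against 13.42 and 14.18. Huwe1, a very large ubiquitin ligase, was 4.06 and 3.01 against 10.78 and 4.41. Cul7 overlapped under all 3 scalings, and Cul5 with quantile normalization.

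For 15 mitochondrial respiration genes and 10 protein folding genes 0 were without overlap, against 9.27% of all genes. The folding list had a median of 0.52 with 9 of 10 positive, and wild type 2 was its low library: the chaperonin gene Hspd1 was 4.96 and 34.83 in the knockout against 30.85 and 0.01, and the Hsp90 cochaperone gene Ptges3 9.22 and 35.72 against 23.06 and 1.73. Without wild type 2 these differences were −1.12 and −0.31. In the mitochondrial list Suclg2, a succinyl-CoA synthetase subunit, was 6.82 and 20.18 against 17.64 and 2.28. Of 39 vesicle traffic and lysosome genes (5.13% without overlap) 1 was above and 1 below. Ap2m1, the cargo-binding subunit of the endocytic clathrin adaptor, was 97.98 and 73.44 against 56.21 and 62.22, and Rab5b, a GTPase of early endosomes, 14.73 and 13.04 against 16.7 and 25.22. Both overlapped under all 3 scalings. Of 25 cytoskeleton genes 1 (4.0%), the alpha-tubulin gene Tuba1c, lay below, at 35.46 and 28.57 against 57.3 and 41.02. It did so under all 3 scalings. Tubgcp3, of the gamma-tubulin ring, was 2.88 and 2.31 against 2.22 and 15.96.

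**Figure D5:**
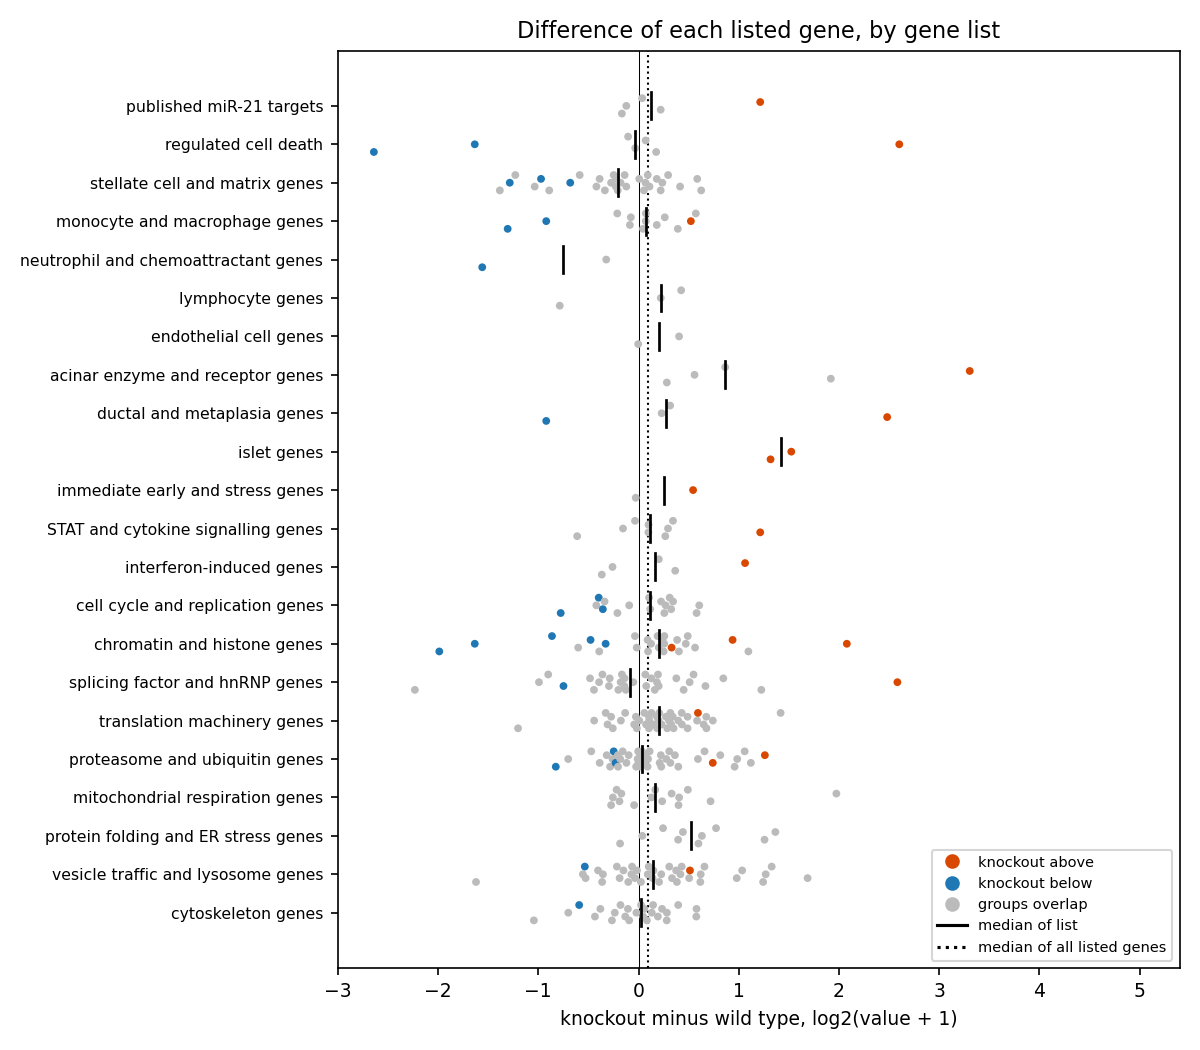
Log2 difference of knockout from wild type for each measured gene of 22 gene lists (3 genes not shown); orange points are genes above and blue points genes below in both knockout libraries, grey points overlap, bars mark the list medians and the dotted line the median of all 1457 genes, 0.09. Most list medians lie between −0.21 and 0.52.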

How the data were processed

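Per the labels' protocols, poly(A) RNA was fragmented, random primed and sequenced on an Illumina instrument. Bowtie 0.12.2 and build mm8 stand in the submitters' processing notes, with no role given; gene quantification, annotation and normalization are not stated there or in the labels. The authors deposited 1 signal value per gene symbol and library, without a unit, for 1457 genes and 1 blank row. The saline library was read only to see how the genes were ordered and whether their caerulein means lay above it. Values were used as deposited, as log2(value + 1), which understates differences of low genes.

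Knockout minus wild type was fitted for all 1457 genes with limma 3.58.1 in R 4.3.3 (trended, robust variance; Benjamini-Hochberg at 0.05), and the script was tested on simulated data. Named were the 12 widest gaps in each direction, the 10 smallest p-values, list members without overlap, and members of the largest difference until 2 per list were named. Of the genes so named, 3 are not reported here. Members, lists and tests were chosen with earlier results of these data known; the seed search and scalings per list were added after seeing the data. Of the symbols 1453 were current names or synonyms, and 1437 matched a coding transcript of GENCODE M21, of which the one with the longest coding part was taken. MicroRNA sequences are RefSeq's (GRCm38.p6). Alternatives were 3 scalings, 3 filters on low values, a pseudocount of 0.1, a variance that is not robust, each library left out, and a block of alike libraries.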

Additional observations from a re-analysis of the deposited data

How the results depend on the processing

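The count of genes called by limma, 0, was 0 under every alternative run except the block that joined wild type 1 with knockout 3 and wild type 2 with knockout 1, where it was 1 (Hnrnph1). That block was chosen after seeing the data. With a variance that is not robust, the smallest adjusted p from limma was 0.0993, so the adjusted p-values themselves depended on that option. With a library left out, which assumes that the lone library varies like the other group, the count ranged from 0 to 0. No paired analysis was possible because the genotypes share only replicate number 1. The lower genes without overlap numbered 122 with quantile normalization, 108 with median-ratio scaling and 107 with equal sums. With a library left out, the higher genes ranged from 191 to 763 and the lower genes from 182 to 654. By the rule such counts can only grow. Their balance turned with the library: 763 higher and 182 lower without wild type 1, 191 and 654 without wild type 2. The median log2 difference of all genes was 0.48 and −0.32 in these 2 settings. The filters on low values left 62 to 67 higher and 59 to 64 lower genes.

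Of 779 recomputed differences of the genes reported, 760 kept direction and call and 18 changed sign. With a pseudocount of 0.1, Cd79a was −0.017. The other sign changes came from leaving out a library, and the range over the 4 libraries left out is given for each gene. Wild type 2 decided the sign of Atp5f1 (−0.031 to 3.98), Gars (−0.54 to 3.38), Hspd1 (−1.12 to 3.85), Prss3 (−0.88 to 4.72), Ptges3 (−0.31 to 2.83), Suclg2 (−0.53 to 1.97) and Tubgcp3 (−2.24 to 0.15). Knockout 1 decided that of Cd79a (−1.97 to 2.82), and knockout 3 that of Stat6 (−1.41 to 0.18). The sign of Igj (−3.23 to 1.66) and Jun (−0.20 to 0.14) changed without wild type 1 or without knockout 3, that of Cd34 (−0.54 to 0.53) without wild type 2 or without knockout 3, and that of Vwf (−0.15 to 0.96) without wild type 1 or without knockout 1. The read depth is unknown, and 2 libraries a group limit what could be detected.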

Other observations

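Gene families outside the lists were looked at after their values had been seen, and have no test. All 3 genes of the table whose names begin with Atg lay below in both knockout libraries, where 4.53% of all genes did, and they were grouped by name after seeing this. They encode the machinery that conjugates LC3 to autophagosome membranes. Atg5 was 4.09 and 2.78 in the knockout, against 11.3 and 5.29 in the wild type, Atg7 2.87 and 4.78 against 7.36 and 11.86, and Atg16l1 is given above. Of 7 autophagy genes in the table the other 4 overlapped, among them Map1lc3b, which encodes LC3 itself, at 37.79 and 80.17 against 66.16 and 19.85, and Ulk1, the kinase that starts autophagy, at 41.17 and 40.37 against 25.12 and 48.58.

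Of 8 basement membrane genes 2 lay below, where 4.53% of all genes did, and 6 overlapped. Their median log2 difference was −0.28. Hspg2, which encodes perlecan, was 4.25 and 6.43 in the knockout against 20.53 and 6.69, and Lama5 is given above, while the collagen IV chain gene Col4a2 overlapped at 24.25 and 24 against 36.5 and 22.04. Ndst1, which modifies heparan sulfate, was 4.01 and 3.14 against 6.84 and 12.24. Of 9 mitochondrial ribosome genes 2 lay below, again beside 4.53% of all genes. These were Mrps9 at 9 and 5.62 against 12.29 and 14.17 and Mrps5 at 8.55 and 5.16 against 10.43 and 12.92. The other 7 overlapped, and the median log2 difference of the 9 was 0.30, above the 0.09 of all genes.

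Smchd1, a protein that maintains the inactive X chromosome, was 10.3 and 8.19 in the knockout against 7.06 and 6.05, in the opposite direction to Xist. Of single genes without overlap, Phgdh, the first enzyme of serine synthesis, was 70.02 and 124.72 against 54.3 and 47.76, and Got2, the mitochondrial aspartate aminotransferase, 16.58 and 20.84 against 11.84 and 9.66. Cdk2ap1, an inhibitor of the kinase CDK2, was 28.11 and 16.81 against 11.24 and 11.65, and Tfdp1, the partner of E2F factors, 8.17 and 6 against 12.49 and 16.1. With quantile normalization Atg7, Ndst1, Mrps5 and Smchd1 overlapped, as Phgdh did after median-ratio scaling.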
